A study of Mus musculus with 5 samples.

Results

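Genes of the machinery that carries and releases cytotoxic granules, Rab27a, Rab27b, Unc13d, Stx11, Stxbp2, Lyst, Vamp8 and Lamp1, were examined for Runx3-bound and H3K4me1-marked regions in IL-2-activated NKC. They were 8 of the 22350 protein-coding genes of the annotation (GENCODE M1, genome build mm9) on the 19 autosomes and chromosome X, and a peak was assigned to a gene when at least 1 bp of it lay in the gene or in the 20 kb on either side. By this rule the 8 genes held 11 Runx3 peaks and 30 H3K4me1 peaks. The cells were splenic NKC of ICR mice, isolated by negative selection, grown for 7 days with 1000 units/ml of human IL-2 and described in the labels as all NKp46+. The study's methods add a sort for DX5+ cells after the selection and give a share of NKp46+ cells a little short of all. All 5 libraries came from such cells: 2 Runx3 immunoprecipitations with an anti-Runx3 antibody, 1 H3K4me1 immunoprecipitation and 2 controls with non-immune rabbit serum (NIS). No untreated or Runx3-deficient cells were analysed here, so the values describe 1 condition.

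Cytotoxic lymphocytes kill by moving lysosome-related granules to the contact with a target cell and fusing them with the plasma membrane. The small GTPase Rab27a docks granules at the membrane, and its paralogue Rab27b acts in secretory vesicle traffic in various cell types. Munc13-4 (Unc13d) primes granules, and syntaxin 11 (Stx11) together with its partner Munc18-2 (Stxbp2) belongs to the apparatus of membrane fusion. Lyst is needed for normal granule size, Vamp8 is a vesicle SNARE, and Lamp1 is a lysosomal membrane protein that appears on the surface of cells that have degranulated. In humans or mice, loss of RAB27A, UNC13D, STX11, STXBP2 or LYST function is known to impair killing by NKC and T cells.

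Both lists give only the position of each peak. The authors had joined the reads of the Runx3 libraries before peak calling, so peak height, the spread between libraries and sequencing depth could not be read from the files, and no value below has a replicate error or a test. The study's methods give fewer uniquely aligned reads for H3K4me1 than for Runx3 in these cells. Whether this lowered the number of H3K4me1 peaks was not tested. The Runx3 list held 11676 peaks and the H3K4me1 list 34204. As a check of the cell type, H3K4me1 peaks were counted at marker genes. All 7 NKC genes had them, with a median of 8 per gene and a range from 2 (Ncr1, Klrd1 and Eomes) to 18 (Il2rb). All 5 T cell genes had them as well, with a median of 4. So did 4 of 5 B cell genes, with a median of 2, up to 4 at Cd79a and 0 at Ms4a1, and 4 of 5 myeloid genes, with a median of 1, up to 5 at Csf1r and 0 at Lyz2. The mark was therefore not restricted to loci of NKC genes, and whether other cells contributed to it was not tested. A peak count is not a level of expression.

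The stretches of mm9 sequence on which the Runx3 results at Rab27a, Unc13d and Vamp8 rest are printed first, on the plus strand. All 3 peaks of Rab27a, all 3 of Vamp8 and the peak over the start of Unc13d are represented. The stretches were chosen as the part of each peak that holds the most RUNX motifs within 300 bases without touching an exon. Where every motif lay in or next to an exon, as at Unc13d, a site of 30 bases is shown. Capitals mark a RUNX motif, which was searched as the word TGTGGT, the word TGTGGC, the word TGCGGT and the word TGCGGC on either strand. The mice were ICR, so these are reference bases and not those of the cells.
Rab27a, upstream of the gene start, chr9:72892465-72892564: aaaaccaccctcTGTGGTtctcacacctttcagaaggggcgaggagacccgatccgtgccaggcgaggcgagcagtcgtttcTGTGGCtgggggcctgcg
Rab27a, first intronic peak, chr9:72920881-72921180: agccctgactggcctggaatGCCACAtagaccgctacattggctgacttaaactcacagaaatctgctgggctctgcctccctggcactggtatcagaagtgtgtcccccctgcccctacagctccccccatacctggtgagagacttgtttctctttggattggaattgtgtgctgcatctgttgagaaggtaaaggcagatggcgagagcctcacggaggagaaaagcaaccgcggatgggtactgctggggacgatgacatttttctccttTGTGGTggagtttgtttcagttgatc
Rab27a, second intronic peak, chr9:72937310-72937609: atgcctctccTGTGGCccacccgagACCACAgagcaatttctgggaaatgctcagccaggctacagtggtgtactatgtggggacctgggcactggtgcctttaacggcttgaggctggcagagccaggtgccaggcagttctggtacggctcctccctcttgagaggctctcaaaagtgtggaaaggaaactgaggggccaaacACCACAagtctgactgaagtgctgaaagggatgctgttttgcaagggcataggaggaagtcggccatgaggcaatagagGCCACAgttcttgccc
Unc13d, in an exon and the 5′ UTR of several transcripts, chr11:115938913-115938942: cTGCGGCcgggtggaaacaaggaaGCCGCA
Vamp8, downstream flank, chr6:72325358-72325417: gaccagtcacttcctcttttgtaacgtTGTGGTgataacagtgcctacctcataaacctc
Vamp8, upstream flank, chr6:72357313-72357372: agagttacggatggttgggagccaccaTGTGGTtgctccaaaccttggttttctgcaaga
Vamp8, peak across the limit of the upstream flank, most of the stretch beyond it, chr6:72360615-72360914: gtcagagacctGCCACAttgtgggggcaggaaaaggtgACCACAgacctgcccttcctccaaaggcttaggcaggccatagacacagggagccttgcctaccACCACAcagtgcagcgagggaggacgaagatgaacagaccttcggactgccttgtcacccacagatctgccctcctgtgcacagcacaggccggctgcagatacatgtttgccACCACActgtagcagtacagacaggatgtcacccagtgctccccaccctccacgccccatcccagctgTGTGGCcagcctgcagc

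Of the 8 genes, 4 had a Runx3 peak: Rab27a, Rab27b and Vamp8 with 3 each and Unc13d with 2. Stx11, Stxbp2, Lyst and Lamp1 had none. Over the whole annotation, one or more Runx3 peaks were found in the same window for 41.1% of protein-coding genes, 2 or more for 18.1% and 3 or more for 7.36%. All 8 genes had an H3K4me1 peak, against 51.1% of protein-coding genes. Their counts were unequal, with 11 peaks at Rab27a, 9 at Unc13d, 3 at Vamp8, 2 each at Stxbp2 and Lyst and 1 each at Rab27b, Stx11 and Lamp1. At least 11 were present at 3.74% of protein-coding genes, at least 9 at 5.83%, at least 3 at 27.7% and at least 2 at 36.8%. The median per gene was 1 Runx3 and 2 H3K4me1 peaks in the 8 genes, and 0 and 1 over all protein-coding genes. Median window lengths were 60242 bp and 55428 bp, but the windows ranged from 45481 bp (Vamp8) to 227035 bp (Lyst), and that of Rab27b was 202475 bp. Per 100 kb of window, Vamp8 had 6.60 Runx3 peaks, a density reached by 1.56% of protein-coding genes, Unc13d 3.58 (9.29%), Rab27a 3.24 (10.4%) and Rab27b 1.48 (30.2%). The 3 peaks of Rab27b were thus spread over a long gene, and those of Vamp8 fell in the shortest of the windows. The density of Vamp8 counts a peak across the limit of its window, with 167 of its 517 bp inside. The map of the windows shows H3K4me1 peaks crowded at Rab27a and around the start of Unc13d.

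**Figure D1:**
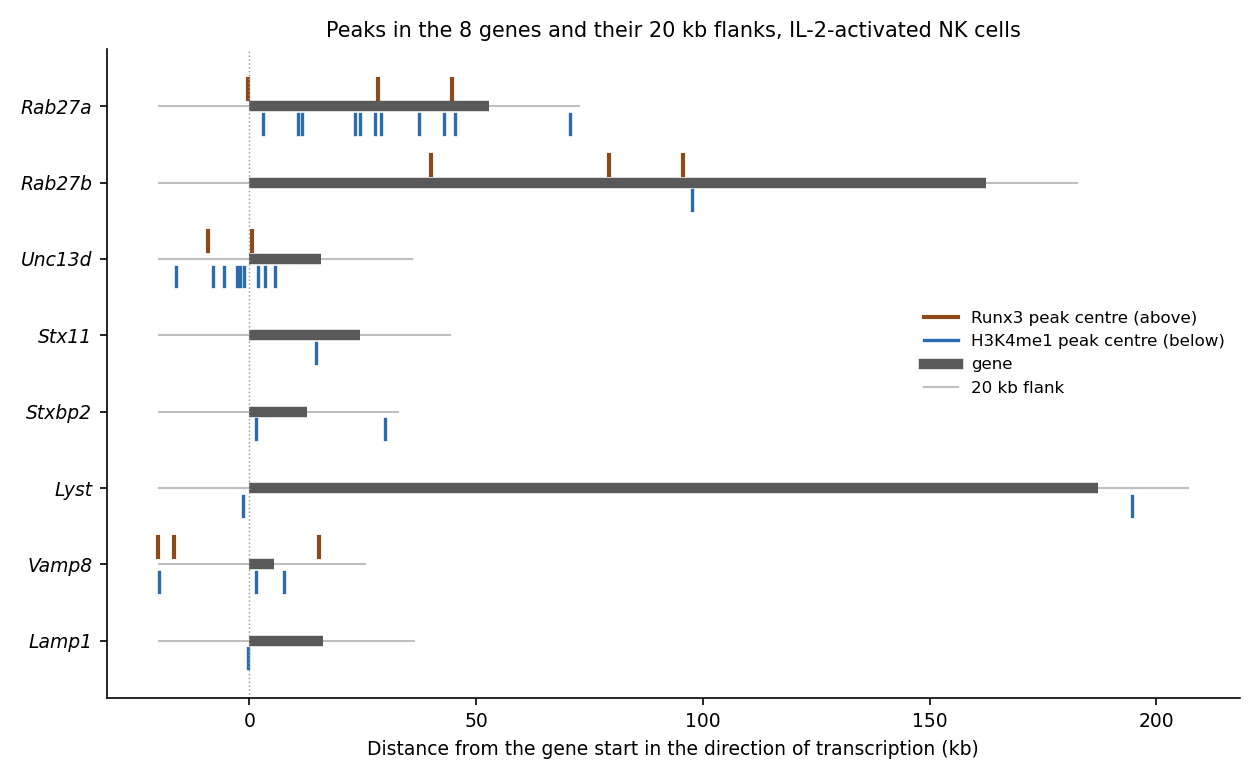
Runx3 peak centres (brown, above the line) and H3K4me1 peak centres (blue, below) at the 8 genes, by distance from the gene start in kb along the direction of transcription, with the gene as a thick bar and the 20 kb flanks as thin lines. Rab27a holds 3 Runx3 and 11 H3K4me1 peaks, whereas Stx11, Stxbp2, Lyst and Lamp1 hold no Runx3 peak.

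Rab27a (chromosome 9, 72892672 to 72945399, plus strand), whose product docks granules at the plasma membrane of cytotoxic lymphocytes, had a Runx3 peak at its single annotated transcription start site (TSS) and a pair in introns. The TSS peak spanned 72891794 to 72892940, was centred 305 bp upstream of the TSS and contained it. It was 1147 bp wide, a width reached by 6.69% of the list, and held 4 RUNX motifs. These lay 833, 192 and 122 bp upstream and 114 bp downstream of the TSS, and none fell in the central 200 bp of the peak. The motif at 192 bp upstream was followed after 2 bases by GGTGTGA on the minus strand (tcacacc as printed above), the word searched as a T-box motif. A RUNX and a T-box motif up to 50 bp apart were found in 7.10% of all Runx3 peaks. No H3K4me1 peak touched this region. The closest lay 2362 bp beyond its edge, inside the gene, and none was found in the 20 kb upstream. The neighbouring gene Pigb also has this peak in its window.

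The intronic peaks of Rab27a were placed among H3K4me1 peaks. The first (72920516 to 72921394, centred 28283 bp from the TSS, 2 RUNX motifs) filled the interval between a pair of H3K4me1 peaks, with 5 bp left on one side and 116 bp on the other. The second (72936974 to 72937863, centred 44746 bp from the TSS, 4 RUNX motifs) shared 563 of its 890 bp with an H3K4me1 peak of 1583 bp (72937301 to 72938883). It also contained an AP-1 motif (TGAGTCA on either strand), 65 bp from the closest RUNX motif. The nearest gene start to this peak was that of 2410004A20Rik, at 12225 bp, so its assignment to Rab27a rests on its position inside the gene. Of the 11 H3K4me1 peaks of the window, 10 were centred in Rab27a. Together the 11 covered 8398 bp or 9.06% of the window, a share reached by 8.78% of protein-coding genes.

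Rab27b (chromosome 18, 70138785 to 70301259, minus strand), the paralogue of Rab27a, had as many Runx3 peaks but 1 H3K4me1 peak, the median number for a protein-coding gene. Its Runx3 peaks were centred 40043, 79198 and 95550 bp downstream of the gene start, were 513, 468 and 592 bp wide, and held 2, 1 and 3 RUNX motifs, all of the TGTGG form. All had a RUNX motif within 37 bp of the peak centre. A downstream TSS shared by 2 protein-coding transcripts lay 88017 bp from the gene start, between the last pair of these peaks, whose centres were at -8819 and 7533 bp from it along the direction of transcription. The single H3K4me1 peak in the window of 202475 bp was 825 bp wide and lay 1435 bp beyond the edge of the last Runx3 peak. It covered 0.407% of the window, a share reached by 49.2% of protein-coding genes. The other Runx3 peaks of Rab27b were 17849 and 56981 bp from any H3K4me1 peak.

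Unc13d (chromosome 11, 115923409 to 115939275, minus strand), which encodes the priming factor Munc13-4, had a Runx3 peak over its start. The peak (115938158 to 115939293) contained 6 of the 7 annotated TSSs, was 1136 bp wide and was centred 550 bp downstream of the gene start and 179 bp from the closest TSS. Its 4 RUNX motifs lay 27, 335, 358 and 466 bp downstream of the gene start. The last 3 were TGCGGC, and 2 of them are those printed above in opposite orientation. An ETS motif on the plus strand (aggaag as printed, its last base the G in capitals) shares that base with the second of them. The peak overlapped no H3K4me1 peak but had one within 374 bp of its edge on the side of the gene body and one within 630 bp on the other. Runx3 peaks without H3K4me1 overlap and with an H3K4me1 peak within 1 kb of both edges, a gap in the mark, made up 2.24% of the Runx3 list. At the 8 genes they were 2 of 11, this one and the first intronic peak of Rab27a.

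The surroundings of Unc13d are shared with its neighbour Wbp2, whose gene start lies in the upstream flank. Of the 9 H3K4me1 peaks, 3 were centred in Unc13d, 5 in Wbp2 and 1 between genes, and together they covered 11.7% of the window. The other Runx3 peak of the window (115948121 to 115948650) was centred 76 bp from the start of Wbp2 and 9110 bp upstream of that of Unc13d. It was the only one of the 11 without a RUNX motif.

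Vamp8 (chromosome 6, 72335217 to 72340697, minus strand), a vesicle SNARE, had no Runx3 peak in the gene or within 5 kb. Its 3 peaks lay in the flanks, and each was nearer to the start of another gene. The downstream peak (72325230 to 72325532, 1 RUNX motif) was in an intron of Vamp5, and at 303 bp it was among the narrowest of the list, of which 99.7% were as wide or wider. The upstream peaks lay between genes, 6917 and 3513 bp from the start of Ggcx. The first (72357168 to 72357602) held 1 RUNX motif and an AP-1 motif 48 bp from it. The second (72360531 to 72361047) held 6 RUNX motifs, a number reached by 9.27% of the list, and lay wholly inside an H3K4me1 peak of 1020 bp. Only 167 of its 517 bp fell within 20 kb of Vamp8. The mark was also present in Vamp8 itself, 1549 bp downstream of the start, in a peak of 452 bp.

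**Figure D2:**
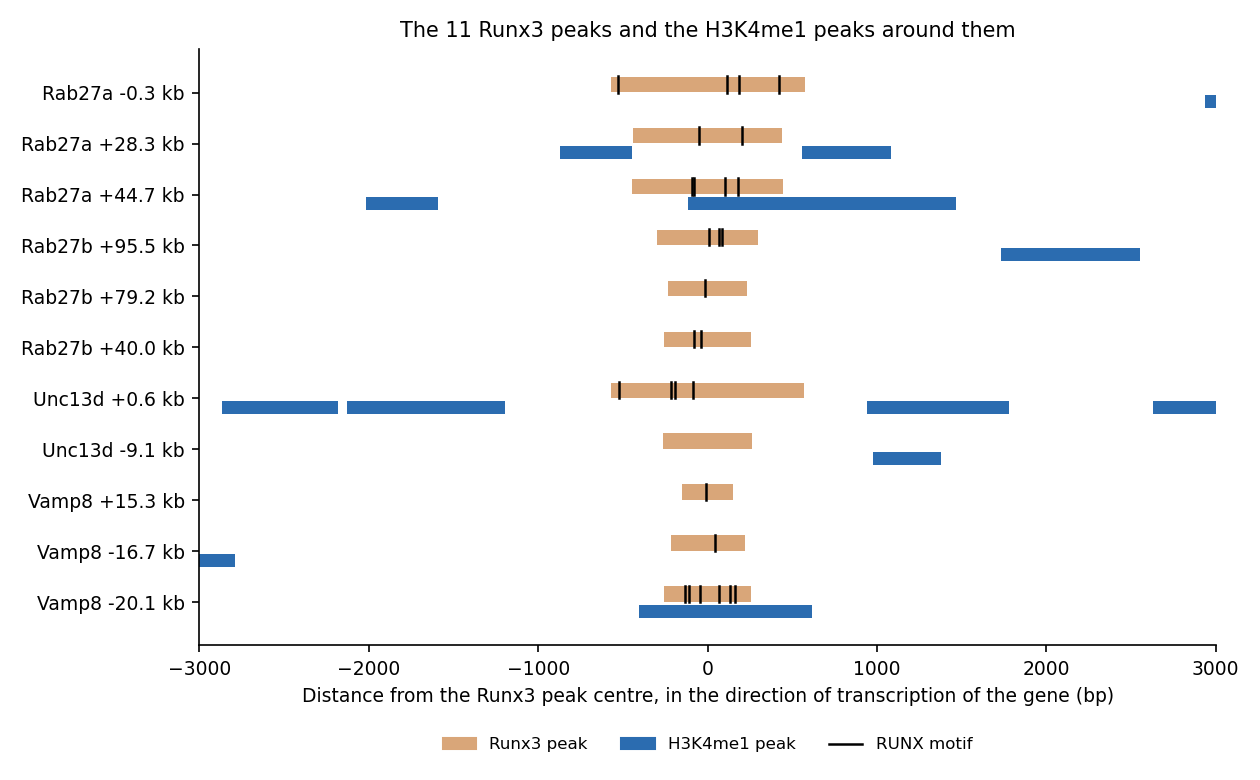
Each of the 11 Runx3 peaks (tan bars) with its RUNX motifs (black ticks) and the H3K4me1 peaks near it (blue bars), by distance from the Runx3 peak centre in bp along the direction of transcription. The row labels give the gene and the distance of the peak centre from its start in kb. In 2 rows an H3K4me1 peak overlaps the Runx3 peak, and the row without ticks is the peak at the start of Wbp2.

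Stx11 (chromosome 10, 12659787 to 12684065), Stxbp2 (chromosome 8, 3630955 to 3643644), Lyst (chromosome 13, 13682676 to 13869710) and Lamp1 (chromosome 8, 13159135 to 13175338) had H3K4me1 peaks and no Runx3 peak, as did 17.3% of protein-coding genes. For the partners of membrane fusion, the Runx3 peak nearest to the start of Stx11 was centred 71180 bp upstream, and that of Stxbp2 45463 bp downstream, 119 bp from the start of Trappc5. The peak nearest to Lyst was 25632 bp upstream of its start, with an edge 25385 bp from the gene and so outside the 20 kb flank. The peak nearest to the start of Lamp1 was 54340 bp upstream and 664 bp from the start of Pcid2. Measured from the edge of the gene, the closest Runx3 peak was 37778 bp from Lamp1, 51087 bp from Stx11 and 32395 bp from Stxbp2. For Lamp1 and Stx11 this was another peak, on the downstream side. The H3K4me1 peak of Lamp1, 448 bp wide, was centred 299 bp upstream of the TSS, and that of Lyst, 933 bp wide, 1381 bp upstream. Stxbp2 had one 1424 bp downstream of its start, and the one of Stx11 lay 14726 bp downstream of the start, inside the gene.

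**Figure D3:**
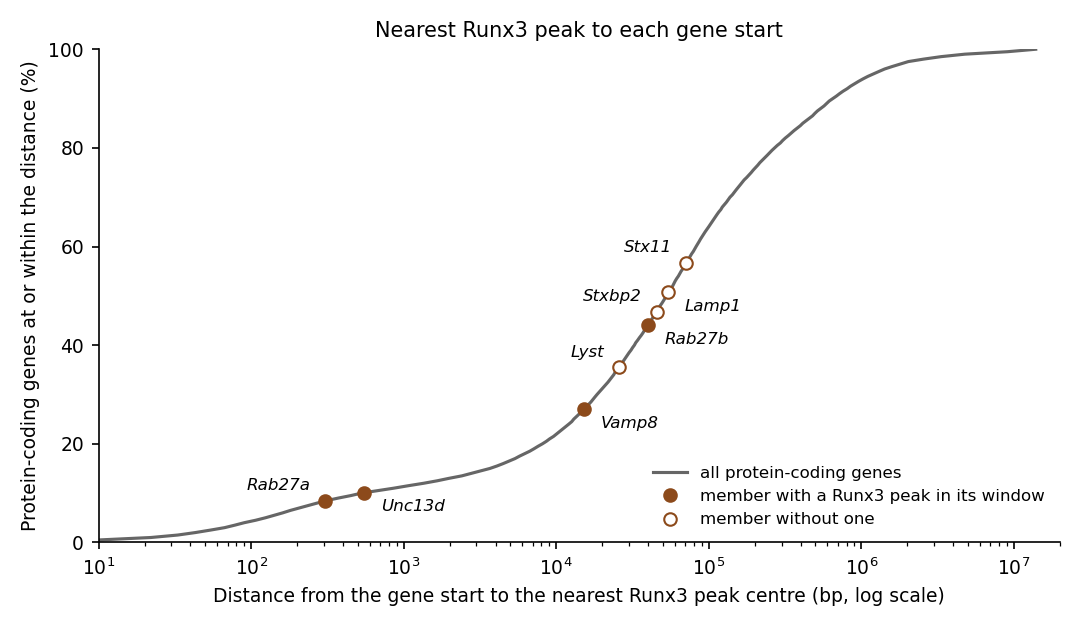
Distance from each gene start to the nearest Runx3 peak centre (bp, log axis) against the share of all protein-coding genes at or within that distance (grey line), with the 8 genes as points, filled where a Runx3 peak lies in the gene or its 20 kb flanks. Rab27a at 305 bp and Unc13d at 550 bp stand at the near end, and Stx11 at 71180 bp is the farthest of the 8.

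Repeated sequence, in which reads cannot be aligned uniquely, was measured beside these zeros. Of the 40-mers of the windows, between 85.8% (Lyst) and 97.4% (Stxbp2) occurred once in the genome, and within 500 bp of the gene start between 98.1% and 100%. The 4 genes with Runx3 peaks had 89.0% to 94.6% in their windows. RUNX motifs were also counted at the gene starts, bound or not. From 250 bases before to 50 bases after the gene start, Lamp1 had 3 RUNX motifs, Rab27a 2, and Rab27b, Unc13d and Stx11 1 each, while Stxbp2, Lyst and Vamp8 had none. Of all protein-coding genes, 45.3% had one there.

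A Runx3 peak was centred within 1 kb of an annotated TSS at 2 of the 8 genes, Rab27a and Unc13d, against 13.3% of protein-coding genes. A Runx3 peak that overlapped an H3K4me1 peak was present at 2 of the 8, Rab27a and Vamp8, against 20.5%. At Vamp8 it was the peak across the limit of the window. Counted over peaks, 2 of 11 overlapped H3K4me1 by at least 1 bp, and over the whole Runx3 list 48.4% did. An H3K4me1 peak lay within 1 kb of 5 of 11, for which the share over the list was not counted. With 8 genes and 11 peaks these shares are descriptions, and differences from the background were not tested.

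**Figure D4:**
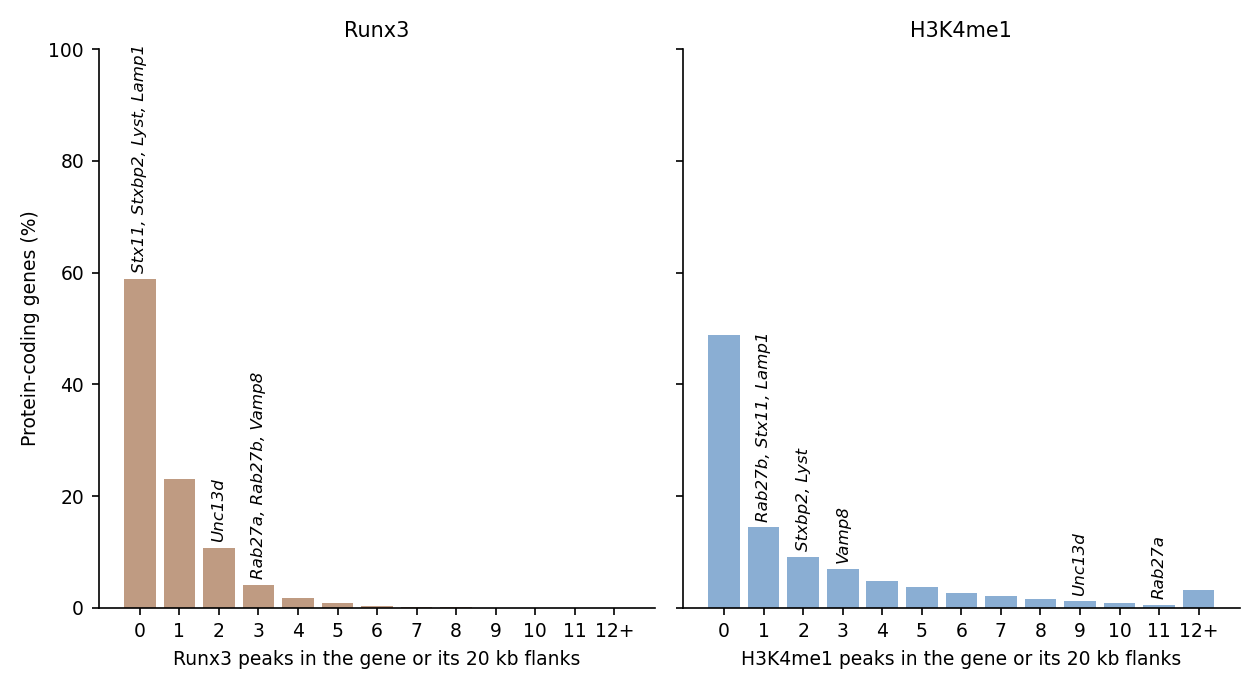
Share of all protein-coding genes (%) by the number of Runx3 peaks (left) and H3K4me1 peaks (right) in the gene or its 20 kb flanks, with the 8 genes named above the bar of their own count; the last bar pools 12 or more. Rab27a with 11 and Unc13d with 9 H3K4me1 peaks are far to the right, while the other 6 genes have 1 to 3.

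The sequence of the 11 Runx3 peaks was compared with that of the list by the motifs it held. A RUNX motif was present in 10 of 11 (96.0% of the list), and in the central 200 bp in 9 of 11 (77.0%). A pair of RUNX motifs up to 50 bp apart was present in 5 of 11 (46.3%). At least 4 RUNX motifs were held by 4 of 11 (32.5%). An ETS motif, searched on either strand as the word AGGAAA, the word AGGAAG, the word CGGAAA and the word CGGAAG, occurred in 10 of 11 (91.4%), and within 50 bp of a RUNX motif in 9 of 11 (60.1%). AP-1 motifs occurred in 2 of 11 (26.2%), within 50 bp of a RUNX motif in 1 of 11 (12.8%), and the T-box motif in 1 of 11 (15.7%). ETS is the family of Ets1, and T-box that of T-bet and Eomes, all known in the development of NKC. Of the 28 RUNX motifs in these peaks, 16 were TGTGGT, found in 10 of 11 peaks (75.9% of the list), and 8 were TGTGGC, in 6 of 11 (57.7%), so that 10 of 11 held one or the other (89.0%). A further 3 were TGCGGC, all in 1 peak (19.2%), and 1 was TGCGGT (21.8%). These 4 with TGCGG were in the peaks over the starts of Rab27a and Unc13d, 2 of 11 peaks (33.6%). Those peaks were also the widest of the 11, whose median width was 530 bp against 704 bp for the list, and the richest in G and C, with 56.5% and 62.9% against a median of 49.6%.

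Other genes of granule biogenesis, movement and fusion were counted in the same windows. Of 55 such genes, 35, or 63.6%, had a Runx3 peak (41.1%), 43 an H3K4me1 peak (51.1%), 21 a Runx3 peak that overlapped an H3K4me1 peak (20.5%) and 13 a Runx3 peak at a TSS (13.3%), where the percentages in parentheses after each count are those of all protein-coding genes. Among SNAREs, SM and Munc13 proteins, 12 of 17 had a Runx3 peak, with 3 each at Stxbp3a and Vamp2 and 2 at Napa, the adaptor that recruits Nsf to SNAREs. Among Rab27 effectors and synaptotagmins it was 6 of 11, led by Sytl2, an effector of Rab27a, with 4, all overlapping H3K4me1 peaks. Rph3al had 2, and Exph5 was among the genes with 1. None of the 11 had a Runx3 peak at a TSS. Window length and expression were not matched between the 55 genes and all protein-coding genes.

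Genes for the biogenesis of lysosome-related organelles had a Runx3 peak in 8 of 14. Ap3d1, a subunit of the AP-3 adaptor that sorts granule proteins, had 8, one of them centred 97 bp from the gene start, and Dtnbp1 and Hps6 had 3 each. Genes for granule movement and actin had one in 8 of 9, with 6 at Myh9, a non-muscle myosin. Coro1a and Dock8, both regulators of the actin cytoskeleton, had 3 each. Per 100 kb of window, Myh9 had 4.93 Runx3 peaks, Coro1a 6.25 and Dock8 1.24. Of 4 genes for granule membrane and matrix, only Srgn, the proteoglycan that packs granzymes, had Runx3 peaks, 3 in number, and Lamp2, Lamp3 and Cd63 were, like Lamp1, without one. Lamp2, Was, Sytl4 and Sytl5 are on chromosome X, on which the whole Runx3 list held 60 peaks and the H3K4me1 list 51.

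**Figure D5:**
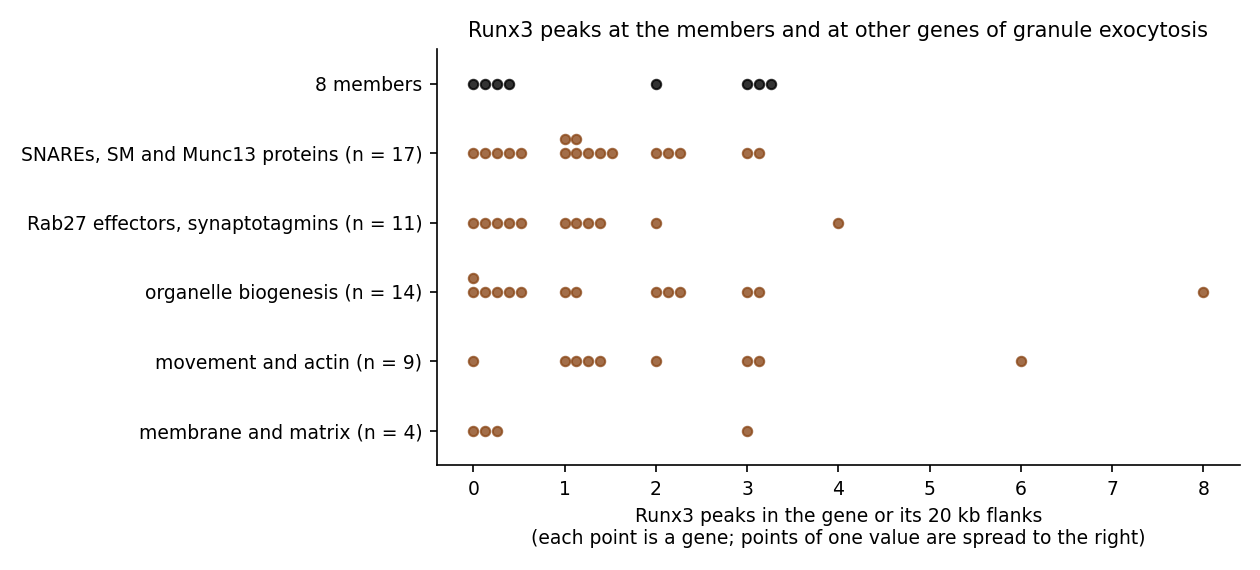
Number of Runx3 peaks in each gene or its 20 kb flanks for the 8 genes (black) and for 55 other genes of granule exocytosis by role (brown), each point a gene. Ap3d1 with 8 and Myh9 with 6 lie farthest to the right, and the 8 genes range from 0 to 3.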

How the data were processed

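ChIP-seq peak lists of 5 libraries of IL-2-activated splenic NKC were analysed. Per the labels and the study's methods, the authors aligned reads to mm9 with ELAND, kept unique alignments, pooled both Runx3 libraries, and used MACS with the NIS libraries as control to call peaks. The deposited values are peak starts and ends in bp. Starts were counted from 0 and are given from 1. Genes, TSSs and sequence were from GENCODE M1 on the same build, whose chromosome names and lengths held every peak.

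The 8 genes were taken as named, and those genes and the other gene lists were chosen with earlier results of these data known. Of 56 other pathway genes, 55 were matched, and Vamp7 was not analysed here. Per role at most 3 genes were named, by number of Runx3 peaks, and genes with equal numbers were taken in alphabetical order of symbol. Peaks, motifs and overlaps were counted, and no test was run. The share of unique 40-mers was counted over both strands of the genome. Window counts and the motif search were tested on simulated data, where all 200 planted genes and all 500 planted motifs were recovered. Alternatives were other windows, overlap rules, TSS rules, joined peaks and all annotated genes. Calculations used python 3.11.15, numpy 2.4.6, numba 0.67.0, pysam 0.24.0 and matplotlib 3.10.9.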

Additional observations from a re-analysis of the deposited data

How the results depend on the processing

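The count of Runx3 peaks at the 8 genes, 11 as reported, depended on the window. It was 7 in the genes alone and 7 with flanks of 5 kb, 20 with flanks of 50 kb, and 6 when a peak counted only for the protein-coding gene with the nearest start. With 50 kb, 7 of the 8 genes had a Runx3 peak, all but Stx11, against 55.4% of protein-coding genes with the same flanks. H3K4me1 peaks numbered 30 as reported, 17 in the genes alone and 54 with 50 kb. Runx3 peaks with an H3K4me1 peak were 2 by overlap and 5 when one within 1 kb was enough. The share of the whole Runx3 list by the looser rule was not counted, so the 5 have no background. The share of protein-coding genes with a Runx3 peak was 23.2% and with an H3K4me1 peak 31.0% in the genes alone. Other alternatives moved the counts by at most 1.5 times. No paired analysis was possible because the lists pool the libraries and no result comes from a test, and for the same reason no library could be left out. A stricter peak threshold was not tried, since the lists hold no scores.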
